A study of Homo sapiens with 3 samples.

Results

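Interferon-stimulated genes are the genes that a cell switches on when interferon binds its receptors, and 46 of them were followed here in IMR-90 cells after siRNA against SETD8. The 46 genes were listed by name: interferon-induced effectors, signal transducers and IRF factors, chemokines and antigen presentation genes. The rule sets no limit on a measured value, but the list was drawn up with earlier results of these data known. Of these, 45 genes were analysed, through 79 of the 54613 probe sets on the array, and 1 member was not analysed here. They stand among 19775 named genes. A mean log2 signal above the filter on low values was reached by 42 of the 45 members and by 12307 of all named genes, and HERC5, RSAD2 and IFI44L lay below it.

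IMR-90 is an established line of human fetal lung fibroblasts. SETD8, now called KMT5A, is a histone H4 lysine methyltransferase. The 3 cultures were profiled with 1 array each, all after 24 h with an siRNA and the same lipid reagent, RNAiMAX: 1 with a control siRNA labelled GL3, 1 with SETD8-1 and 1 with SETD8-2, called siRNA 1 and siRNA 2 below. No untransfected culture is among them, so a response to transfection itself cannot be seen. Whether such a response was equal with the 3 siRNAs was not tested. Because each siRNA has 1 array, there is no replicate error, no test was possible, and every value below describes these 3 RNA samples. Both comparisons with the control use the same control array, so a low or high value on it moves both in the same direction. The difference between siRNA 1 and siRNA 2 does not use that array.

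Interferons are secreted proteins that bind cell-surface receptors, whose JAK kinases then activate STAT transcription factors. Type I interferon signalling, through STAT proteins together with IRF9, acts on a DNA element called the ISRE, and interferon gamma acts on the GAS element through a STAT dimer. IRF factors also bind ISRE-like sequences directly, and the chemokine and antigen presentation members are in addition known targets of NF-kappaB, so these genes can be switched on by more than 1 route. Fibroblasts respond to interferon and to cytosolic nucleic acid with this programme.

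The promoter sequences are shown because many of the members, though not all, hold letters that match these elements. The arrays also differ in how far each gene was higher. RefSeq promoter windows of GRCh38.p14 were matched for 37 of the 45 members, which have 53 annotated starts. The windows run from upstream of the annotated start to 50 bases after it. The stretches printed here end at the base before the start and are written 5′ to 3′ on the gene's strand. Capitals mark matches to the ISRE (GAAANNGAAA, or its reverse complement), and in CXCL10 and IRF1 also to GAS (TTCNNNGAA) and to the NF-kappaB consensus. ISG15 (chr1:1013337-1013496, plus strand), IFI6 (chr1:27672193-27672352, minus strand), IFI27 (chr14:94110576-94110735, plus strand) and BST2 (chr19:17405631-17405790, minus strand) were higher with both siRNAs. CXCL10 (chr4:76023498-76023727, minus strand) and IRF1 (chr5:132490774-132490933, minus strand) were higher with siRNA 1 alone. IFIT1 (chr10:89392463-89392622, plus strand) and B2M (chr15:44711357-44711516, plus strand) hold the ISRE letters as well and were under 2-fold with both.
ISG15: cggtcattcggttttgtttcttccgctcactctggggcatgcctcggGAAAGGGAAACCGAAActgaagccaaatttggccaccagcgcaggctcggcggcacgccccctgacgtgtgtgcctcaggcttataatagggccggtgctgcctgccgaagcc
IFI6: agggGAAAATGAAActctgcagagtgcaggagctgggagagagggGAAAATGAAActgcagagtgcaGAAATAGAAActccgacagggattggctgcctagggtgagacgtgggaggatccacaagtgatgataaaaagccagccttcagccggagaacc
IFI27: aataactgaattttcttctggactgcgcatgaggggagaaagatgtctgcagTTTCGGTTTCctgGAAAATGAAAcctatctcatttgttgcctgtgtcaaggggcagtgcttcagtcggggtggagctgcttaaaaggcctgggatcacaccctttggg
BST2: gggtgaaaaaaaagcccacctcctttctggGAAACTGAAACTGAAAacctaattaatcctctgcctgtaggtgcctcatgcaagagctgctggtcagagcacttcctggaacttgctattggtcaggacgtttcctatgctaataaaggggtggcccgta
CXCL10: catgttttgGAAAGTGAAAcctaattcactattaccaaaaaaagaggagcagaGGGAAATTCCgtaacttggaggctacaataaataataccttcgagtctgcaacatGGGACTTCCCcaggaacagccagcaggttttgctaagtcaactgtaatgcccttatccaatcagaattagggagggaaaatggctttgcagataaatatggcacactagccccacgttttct
IRF1: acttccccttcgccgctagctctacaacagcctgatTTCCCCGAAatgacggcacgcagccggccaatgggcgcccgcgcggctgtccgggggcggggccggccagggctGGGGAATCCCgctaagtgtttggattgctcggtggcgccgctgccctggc
IFIT1: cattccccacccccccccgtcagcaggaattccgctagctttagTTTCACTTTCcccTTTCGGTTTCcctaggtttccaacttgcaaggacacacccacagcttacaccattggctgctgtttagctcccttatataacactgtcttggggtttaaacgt
B2M: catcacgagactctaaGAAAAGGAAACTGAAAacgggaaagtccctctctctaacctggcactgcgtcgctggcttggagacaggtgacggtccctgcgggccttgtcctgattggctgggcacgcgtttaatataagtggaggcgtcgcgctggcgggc

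The ISRE letters were found, on either strand, in 28 of the 53 member windows (52.8%), against 3.57% of the 35116 windows of all genes. Per gene, 24 of 37 members (64.9%) had a match at 1 start or more, against 4.38% of 27305 genes. IFI6 had 3 matches upstream of its start, and in ISG15, BST2 and B2M 2 matches overlapped. GAS letters stood in 24.5% of member windows and 7.66% of all windows, and the NF-kappaB consensus in 20.8% and 11.3%. Matches of different motifs can overlap: in BST2 a GAS match, not in capitals here, overlaps the first bases of the ISRE. A match describes letters and is not a measured binding site.

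Members with the ISRE letters were found in every class of response. Among genes with a window, the letters were present in 6 of the 8 with signals 2-fold or more above control on both SETD8 siRNA arrays (MX1, BST2, ISG15, HERC5, IFI6 and IFI27), in 5 of the 9 higher with siRNA 1 alone, and in 13 of the 20 others. CMPK2 and CXCL11, higher with both, had no ISRE match in these windows. Of 36 further interferon-induced genes with a window, 21 held the letters, and of 16 constitutive proteasome genes, 2 did.

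**Figure D1:**
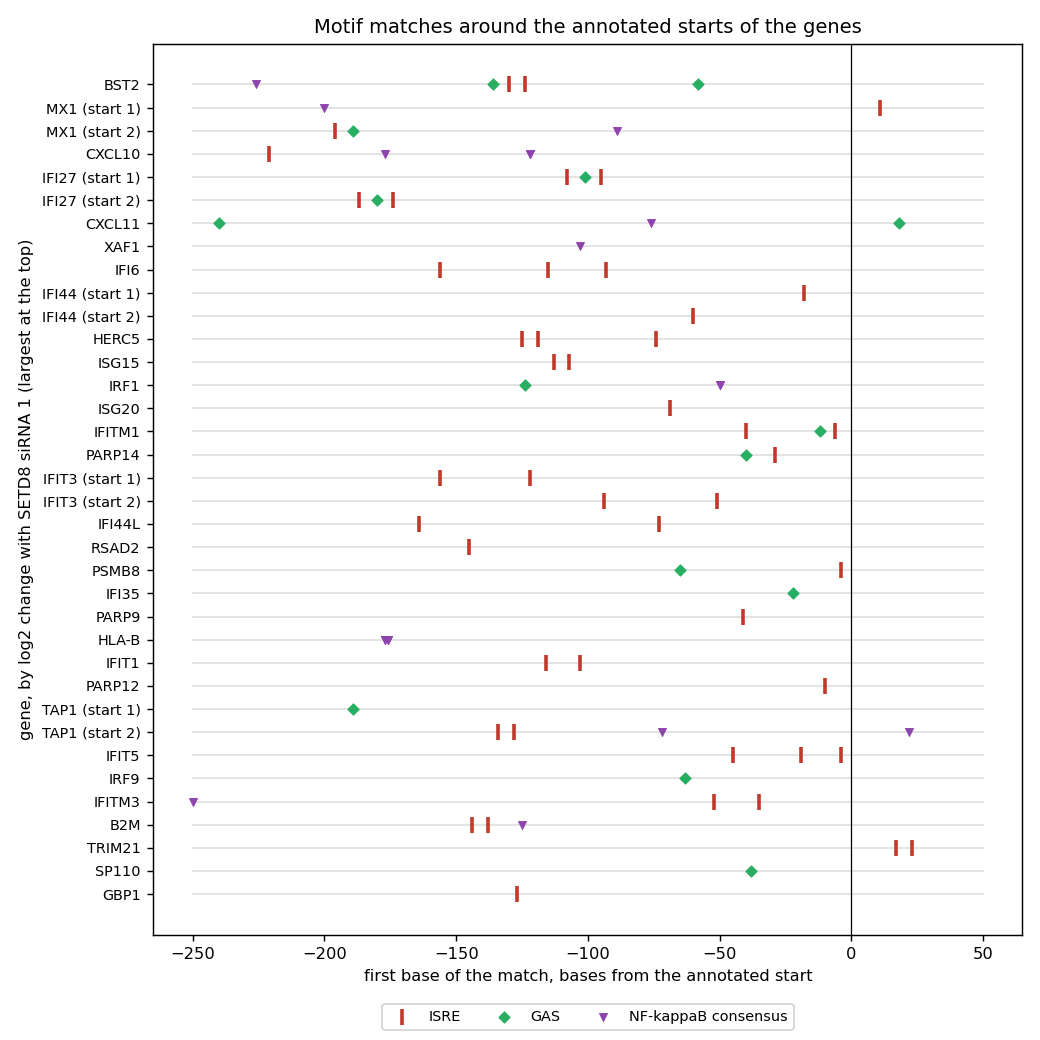
Each line is 1 promoter window with a match, genes ordered by log2 change with SETD8 siRNA 1, and the x axis gives the first base of each match in bases from the annotated start (0); numbered starts count the windows of a gene that hold a match. Of the 37 genes with a window, 31 held at least 1 of the 3 motifs, and ISRE matches (red bars) occur from the top of the order (BST2, MX1) to the bottom (GBP1).

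The data are signals made with the MAS5 algorithm, 1 linear number per probe set, which the authors' software scaled to a common level on each array. Signals of different genes come from different probes and are not compared with each other. Values under 11.7, near background, were set to that floor before log2 was taken, and a gene counts as higher or lower when it differed by at least 2-fold. KMT5A itself had a signal of 938.9 on the control array, 431.4 with siRNA 1 and 584.1 with siRNA 2, that is 45.9% and 62.2% of control. With shared probe sets left out, the log2 change of KMT5A with siRNA 1 was -0.48 in place of -1.12. All 10 fibroblast markers were above the filter, with summed signals from 151412 to 166839, carried mostly by collagens and VIM. Of these, DCN read 20075.4, 7745.9 and 22971.2, lower by 2-fold or more with siRNA 1. Of 8 leukocyte markers 2 were above it, with sums of 176.9 on the control array, 257.4 with siRNA 1 and 239.3 with siRNA 2, and PTPRC (CD45) read 31.1, 23.1 and 15.9. Of 6 markers of plasmacytoid dendritic cells, the main interferon-producing blood cells, IRF8 alone was above the filter, and the sums were 84.4, 123.6 and 119.0. Epithelial markers summed to 3363.5, 3191.7 and 6551.9 with 3 of 8 above the filter (KRT18 read 2987.4, 2962.8 and 6010.1), and endothelial markers to 1403.1, 1594.6 and 2206.4 with 3 of 8. TEK made up most of the endothelial sum, while PECAM1 (49.0, 135.0 and 52.7) and VWF (59.7, 130.5 and 80.9) were low and highest with siRNA 1, as many members were. CDH5, which defines endothelium, read 1.5, 2.9 and 4.9. The part of these in the results was not tested. In such bulk RNA, more responding cells and more RNA per cell cannot be told apart.

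More of the interferon-stimulated genes were past 2-fold with siRNA 1 than with siRNA 2. With siRNA 1, 18 of the 42 members above the filter were higher by 2-fold or more, where 5.48% of all genes above that level were, and 1 (IFIT2) was lower by 2-fold or more, where 7.75% were. With siRNA 2, 7 members were at least 2-fold higher (4.46% of all genes) and 0 at least 2-fold lower (6.65%). Those 7 were also higher with siRNA 1, giving 7 of 42 higher with both, beside 1.5% of all genes, and 0 lower with both, beside 3.23%. The 7 were MX1, BST2, ISG15, CMPK2, IFI6, IFI27 and CXCL11. CXCL11 was under 2-fold with siRNA 2 in 4 of 7 alternative settings, and CMPK2 when 16 was added to every signal as a pseudocount, which left 5 members higher with both.

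A filter on the mean of the 3 arrays keeps genes that are high on only some of them. MX1, BST2, CMPK2 and CXCL11 had control signals under the filter level of 42.0 and passed through the SETD8 siRNA arrays, so their count is not support by itself. Over all 45 analysed members with no filter, 19 were higher with siRNA 1 (7.79% of all 19775 genes), 9 with siRNA 2 (6.66%) and 8 with both (2.33%), the last now including HERC5. With the filter placed on the control array alone, an alternative added after the data were seen, 38 members remained, of which 14 were higher with siRNA 1 (4.45% of 12574 genes under that filter), 3 with siRNA 2 (3.38%) and 3 with both (ISG15, IFI6 and IFI27, beside 1.01%).

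The median of the members lay above that of all genes with siRNA 1, and less far with siRNA 2. The median log2 change of the 45 members was 0.71 with siRNA 1 and 0.25 with siRNA 2. Their change was above 0 for 42 of 45 genes with siRNA 1 and for 30 of 45 with siRNA 2. Above the filter the medians were 0.69 and 0.22 over the members, against -0.02 and -0.01 over all genes, of which 48.4% and 48.9% were above 0.

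**Figure D2:**
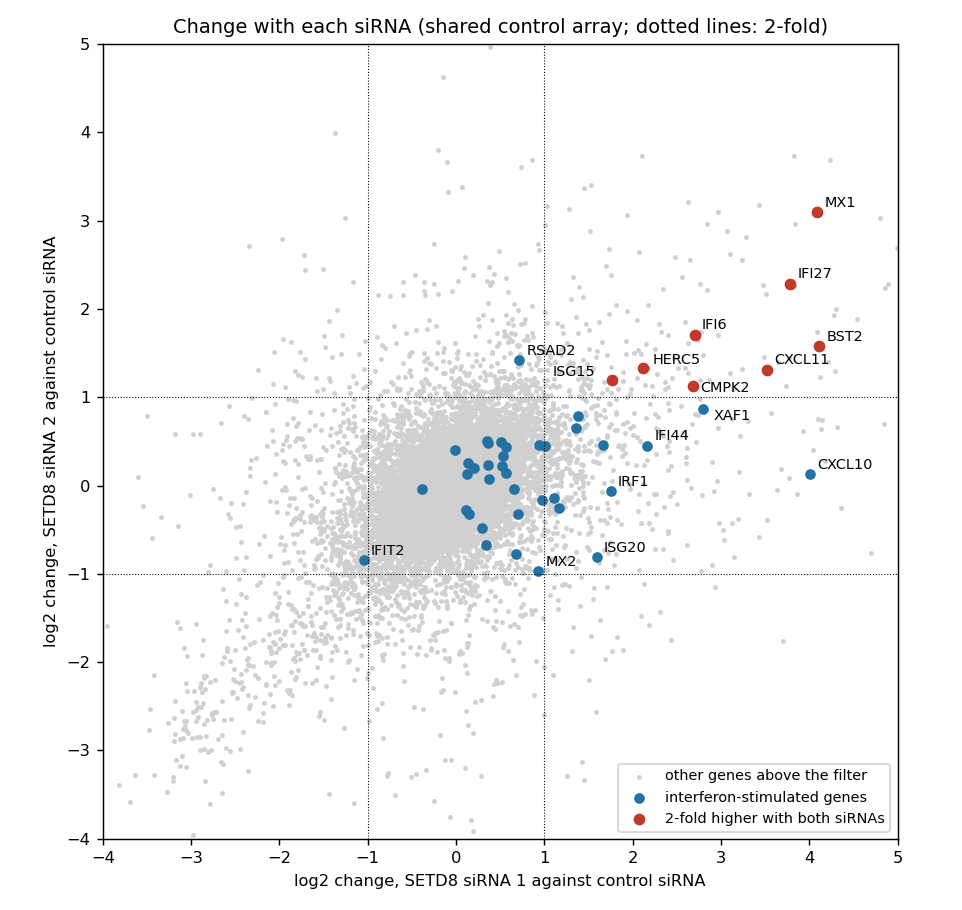
The log2 change with SETD8 siRNA 1 (x axis) is plotted against that with SETD8 siRNA 2 (y axis) for 45 interferon-stimulated genes (blue, and red where 2-fold higher with both) and for the other genes above the filter (grey, of which 30 lie outside the axes); both axes share the control array. MX1 lies farthest to the upper right (4.09 and 3.10), CXCL10 far to the right near 0 on the y axis (4.01 and 0.13), and MX2 and ISG20 to the right and below 0.

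The effectors that restrict viruses directly included the members with the highest fold changes. MX1, a dynamin-like GTPase that blocks incoming viral ribonucleoproteins, had a signal of 24.5 on the control array, 417.0 with siRNA 1 and 209.7 with siRNA 2. It was near background on the control array and clearly above the filter level on the other arrays, a 17.0-fold and 8.56-fold difference on the floored scale. Its paralogue MX2, which acts against retroviruses, had signals of 64.3, 122.4 and 32.8. MX2 was thus highest with siRNA 1 and lowest with siRNA 2, with log2 changes of 0.93 and -0.97, each just under 2-fold.

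The guanylate-binding proteins, GTPases that attack the membranes around intracellular pathogens and are classical interferon gamma targets, differed little between the arrays. GBP1 had signals of 3597.5, 2758.1 and 3494.1, a log2 change of -0.38 with siRNA 1 and -0.04 with siRNA 2. GBP2 had 303.7, 327.7 and 251.2. Both stayed under 1.5-fold with either siRNA.

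BST2 (tetherin) holds budding virions on the cell surface. Its signal was 6.6 on the control array, 202.7 with siRNA 1 and 34.9 with siRNA 2. The control value lies below the floor, so the fold depends on how low values are treated. On the floored scale it was 17.3-fold higher with siRNA 1 and 2.98-fold with siRNA 2, log2 changes of 4.11 and 1.58. With 16 added to every signal the log2 changes were 3.27 and 1.17. The siRNA 2 signal is itself below the filter level. The IFITM proteins block fusion of virus and host membranes. IFITM1 had signals of 3505.4, 8964.9 and 5487.6, which is 2.56-fold higher with siRNA 1 and 1.57-fold with siRNA 2. IFITM3 (11878.3, 15266.9 and 16548.7) and IFITM2 (12097.1, 11981.4 and 15971.6) stayed under 1.5-fold on high signals. Whether the scale is compressed at such signals was not tested, and the highest signal on the arrays was 36667.4. The IFITM paralogues are similar in sequence. A probe set annotated to both IFITM1 and IFITM2, left out of the gene values, read 2689.9, 6645.1 and 3901.2.

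The IFIT proteins bind viral RNA that lacks the host cap modification, and none of the 4 was 2-fold higher with either siRNA. IFIT1 had signals of 471.4, 698.2 and 636.7, log2 changes of 0.57 and 0.43. IFIT3 had 1426.0, 2800.8 and 1276.4, just under 2-fold with siRNA 1 (0.97) and -0.16 with siRNA 2. IFIT2 stood apart from the other members: it read 426.9 on the control array, 206.9 with siRNA 1 and 237.2 with siRNA 2. It was lower with both, by log2 changes of -1.04 and -0.85. A dimmer IFIT2 probe set gave -0.93 and 0.24, so the direction with siRNA 2 depended on the probe set. IFIT5 had 1482.3, 1916.7 and 1557.1.

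ISG15 is a ubiquitin-like protein that is attached to other proteins after interferon, and the genes of this pathway were higher together with siRNA 1. All 5 were at least 2-fold higher on that array, with a median log2 change of 1.66. ISG15 itself had signals of 2859.0, 9711.9 and 6545.9, 3.40-fold and 2.29-fold higher, so it was well above background on all 3 arrays and higher with both siRNAs. UBE2L6, its conjugating enzyme, read 1295.1, 2785.8 and 1175.0, with the siRNA 2 array close to control. HERC5, its main ligase, read 17.4, 75.6 and 43.8, with log2 changes of 2.12 and 1.33 on a low signal. The related ligase gene HERC6 read 133.9, 348.2 and 230.8, changes of 1.38 and 0.79. USP18, which removes ISG15 and also dampens the interferon receptor, read 297.0, 940.8 and 409.5, changes of 1.66 and 0.46. With siRNA 2 the members of this group therefore ranged from -0.14 for UBE2L6 to 1.33 for HERC5.

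Of the antiviral enzymes, CMPK2, a mitochondrial nucleotide kinase, had signals of 36.1, 231.4 and 78.7, with log2 changes of 2.68 and 1.12. RSAD2 (viperin), its genomic neighbour and partner in making a chain-terminating nucleotide, read 24.4, 40.0 and 65.4, with a mean log2 value below the filter. RSAD2 was the only member at least 2-fold higher with siRNA 2 (1.42) and not with siRNA 1 (0.71), and its dimmer probe set gave the order 17.5, 59.2 and 49.4. ISG20, an exonuclease that degrades viral RNA, read 66.2, 199.6 and 37.8. It was higher than control with siRNA 1 (1.59) and lower with siRNA 2 (-0.81).

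The IFI genes and XAF1 held several of the clearest differences. IFI27, a mitochondrial protein often used as a marker of interferon exposure in blood, read 92.3 on the control array, 1273.4 with siRNA 1 and 450.5 with siRNA 2, 13.8-fold and 4.88-fold higher. IFI6, a small membrane protein that inhibits flavivirus replication, read 958.6, 6234.9 and 3133.8, 6.50-fold and 3.27-fold higher. Both were above the filter level on the control array and higher with each siRNA, with siRNA 1 the higher.

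XAF1, a pro-apoptotic antagonist of XIAP, read 144.0, 1001.4 and 261.7, with log2 changes of 2.80 and 0.86. IFI44 read 203.8, 914.6 and 278.3, changes of 2.17 and 0.45. Both were thus past 2-fold with siRNA 1 and above control by less than 2-fold with siRNA 2. IFI44L read 26.2, 50.4 and 36.0, low on all 3 arrays and above the filter level on the siRNA 1 array alone. IFI16, a nuclear DNA sensor, read 4386.7, 5393.4 and 3150.4, under 1.5-fold with both. IFI35 read 325.6, 519.4 and 190.1, above control with siRNA 1 (0.67) and below it with siRNA 2 (-0.78).

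**Figure D3:**
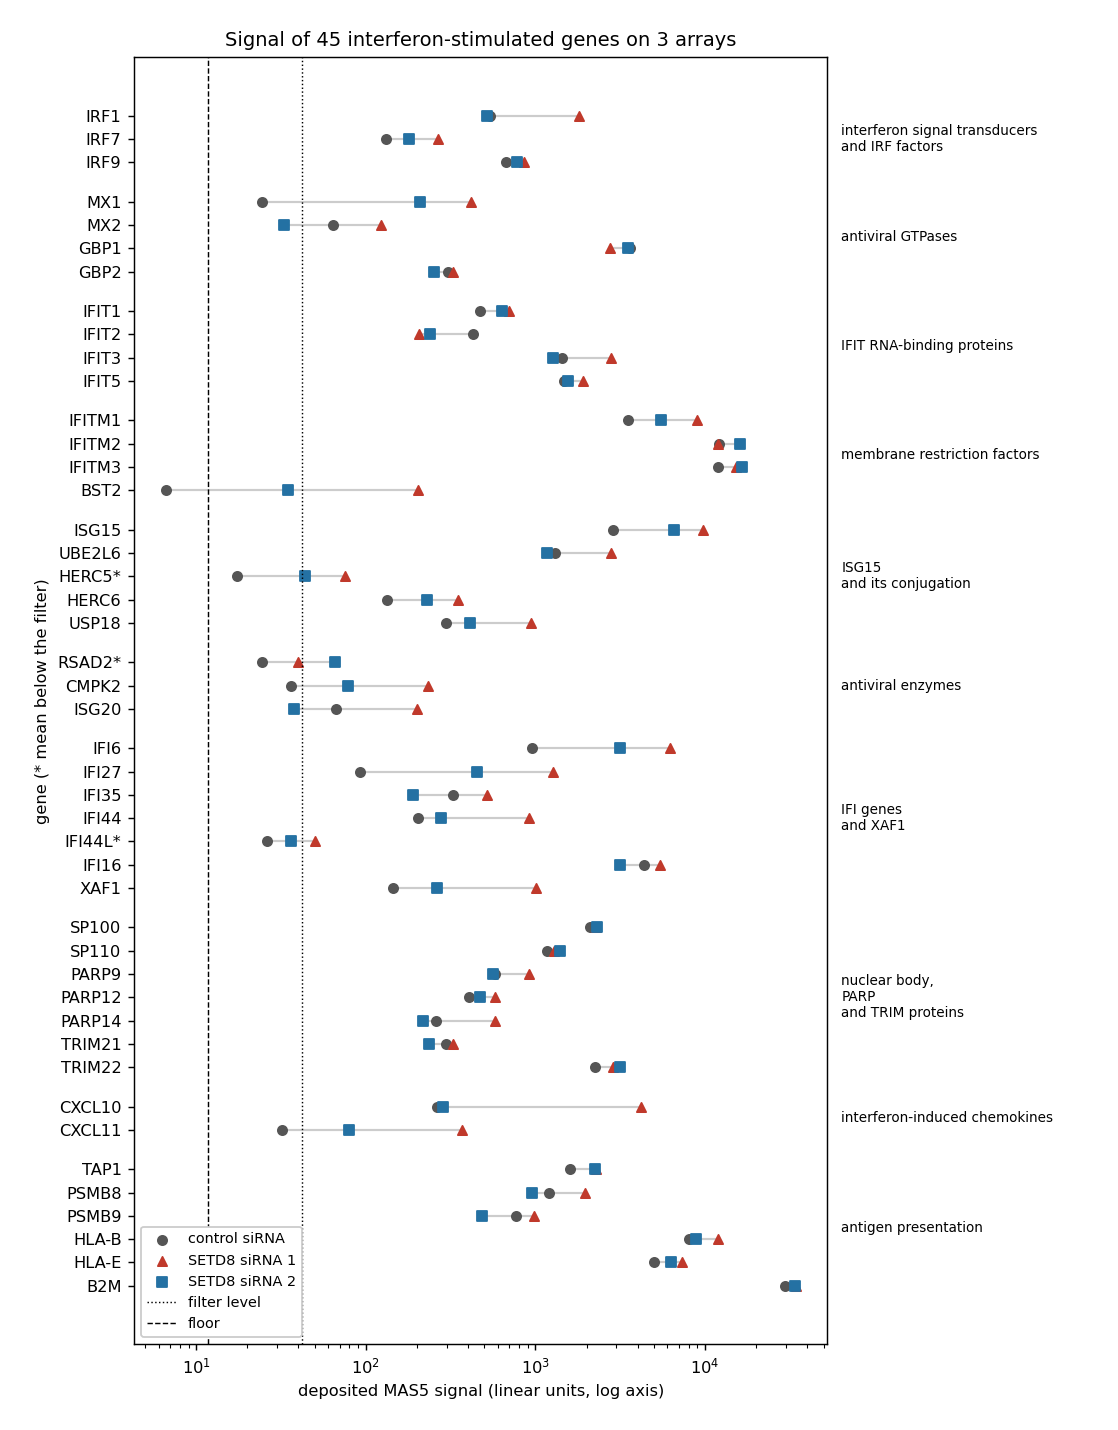
Deposited MAS5 signal (log axis) of 45 interferon-stimulated genes, grouped by role, on the control array (circles), with SETD8 siRNA 1 (triangles) and with SETD8 siRNA 2 (squares), 1 array each; dotted and dashed lines mark the filter level (42.0) and the floor (11.7), and asterisks mark genes below the filter. The triangle lies to the right of the circle for 42 of 45 genes, while the square lies between them for genes such as IFI6, IFI27 and ISG15 and next to or left of the circle for CXCL10, IRF1, ISG20 and UBE2L6.

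Among the regulators, IRF1, the factor that drives the interferon gamma and inflammatory part of the programme, read 539.6 on the control array, 1816.4 with siRNA 1 and 516.8 with siRNA 2. It was high on 1 array only, with log2 changes of 1.75 and -0.06, and a second probe set gave 1.26 and -0.58. IRF7, which amplifies type I interferon genes, read 132.2, 266.2 and 180.7, changes of 1.01 and 0.45. The siRNA 1 value sits at the 2-fold limit. IRF9, the DNA-binding part of the type I interferon complex, read 666.8, 857.3 and 780.6, under 1.5-fold with both.

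The interferon-induced chemokines, ligands of CXCR3 that attract T cells, differed most between the siRNAs. CXCL10 read 260.9 on the control array, 4211.6 with siRNA 1 and 285.7 with siRNA 2. It was 16.1-fold higher with siRNA 1 and close to control with siRNA 2 (0.13 on the log2 scale). CXCL11 read 32.2, 369.6 and 80.0, log2 changes of 3.52 and 1.31, and its other probe set gave 2.24 and 0.64.

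The antigen presentation members, which process peptides and display them on class I molecules, differed little from control. B2M, the light chain of class I, read 29658.6, 34259.1 and 33950.4. HLA-B read 8046.3, 11933.4 and 8877.7, and HLA-E read 5011.6, 7268.4 and 6298.5. By these probe sets all 3 genes were highest with siRNA 1, each under 1.5-fold. Other probe sets gave another order: an HLA-E probe set read 1208.5, 1467.0 and 2674.1, past 2-fold with siRNA 2, and a B2M probe set read 27699.3, 30263.5 and 30687.7.

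TAP1, part of the peptide transporter, read 1589.7, 2267.5 and 2233.1, log2 changes of 0.51 and 0.49. The immunoproteasome subunit PSMB8 read 1198.1, 1950.3 and 959.7, and PSMB9 read 768.2, 974.5 and 482.5. Both subunits were above control with siRNA 1 (0.70 and 0.34) and below it with siRNA 2 (-0.32 and -0.67). By the probe sets that stand for the genes, none of the 6 members of this group reached 2-fold with either siRNA. The HLA-E probe set named above did with siRNA 2.

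The nuclear body, PARP and TRIM members gave 1 gene past 2-fold. PARP14, an ADP-ribosyltransferase, read 257.5, 576.6 and 215.7, a log2 change of 1.16 with siRNA 1 and -0.26 with siRNA 2. PARP9 (580.5, 916.5 and 563.5) and PARP12 (403.9, 579.2 and 471.2) were above control with siRNA 1 by 0.66 and 0.52, and a dimmer PARP9 probe set gave -0.59. The nuclear body proteins SP100 (2107.3, 2287.9 and 2300.5) and SP110 (1166.2, 1277.8 and 1391.3) differed from control by at most 0.25 on the log2 scale. A dimmer SP110 probe set gave 0.93 and 0.66. TRIM21, an intracellular antibody receptor, read 295.8, 327.1 and 236.0, and TRIM22, a restriction factor, read 2237.8, 2845.5 and 3162.0. Neither reached 1.5-fold.

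In all, 8 of the 45 analysed members reached 2-fold above control with each siRNA and 11 with siRNA 1 alone: IRF1, IRF7, IFITM1, UBE2L6, HERC6, USP18, ISG20, IFI44, XAF1, PARP14 and CXCL10. Of these 11, 7 were above control with siRNA 2 and 4 (IRF1, UBE2L6, ISG20 and PARP14) below it. RSAD2 was higher with siRNA 2 alone, IFIT2 was lower with siRNA 1, and the remaining 24 were under 2-fold with both. An effect past 2-fold with 1 siRNA and not with the other is not by itself a difference between them, so the SETD8 siRNA arrays were set against each other.

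A part of the interferon-stimulated genes was lower by 2-fold with siRNA 2 than with siRNA 1, and none of those above the filter was higher by that much. Of the 42 above the filter, 17 were at least 2-fold lower with siRNA 2 than with siRNA 1, where 6.38% of all genes were, and 0 were at least 2-fold higher, where 6.18% were. With no filter the count was 17 of 45 (8.75% of all genes). The median log2 difference over 45 members was -0.70, and 37 of 45 were lower with siRNA 2, while the median of all genes above the filter was -0.00. With replicates lacking, this could not be tested.

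The order within this difference put the chemokine first. CXCL10 was 14.7-fold lower with siRNA 2 (-3.88 on the log2 scale), followed by BST2 (-2.54), ISG20 (-2.40), CXCL11 (-2.21), XAF1 (-1.94), MX2 (-1.90), IRF1 (-1.81) and IFI44 (-1.72). Of the genes higher with both siRNAs, ISG15 differed least (-0.57), and MX1 and IFI6 differed by -0.99 each, just under 2-fold. RSAD2 (0.71), IFITM2 (0.41) and GBP1 (0.34) stood at the other end.

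**Figure D4:**
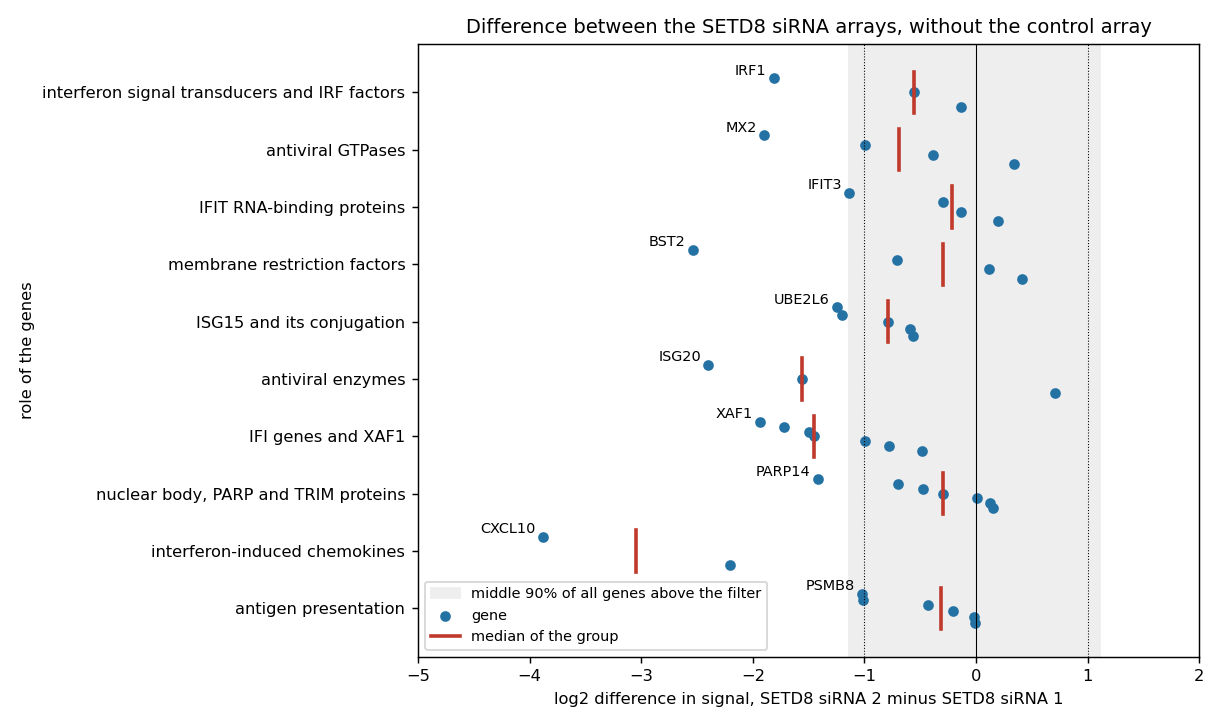
Each point is 1 of 45 interferon-stimulated genes, placed by its log2 signal with SETD8 siRNA 2 minus that with SETD8 siRNA 1 and grouped by role, with the median of each group (red bar), the lowest gene of each group named, 2-fold limits dotted, and the middle 90% of all genes above the filter shaded (-1.13 to 1.11). The group medians all lie below 0, farthest for the chemokines (-3.04) and nearest for the IFIT proteins (-0.22).

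How unusual such differences are depends on the signal level, since dim probe sets vary more. The size of the difference between the SETD8 siRNA arrays that 95% of genes stayed under was 2.21 on the log2 scale in the dimmest of 4 equal bins of mean signal above the filter (42.0 to 184), then 1.72, 1.25 and 1.14 in the brightest, which starts at 2103. This spread holds real differences between the siRNAs as well as noise. It is set here beside members that were above the filter level on the control array. The bins use the mean of all 3 arrays, so a high siRNA signal can move a gene to a brighter bin. This was so for IFI6 (958.6 on the control array) and IFI27 (92.3), so their shares are partly set by the change itself. Among genes of the same signal bin, 0.357% were as high as IFI6 with siRNA 1 and 0.227% with siRNA 2. For ISG15 these shares were 1.07% and 1.53%, and for IFI27 0.585% with each. CXCL10 was as rare with siRNA 1 (0.487%) but not with siRNA 2 (34.5%). These members were picked for large changes, and for others the shares were higher. They were 12.8% and 16.2% for IFIT1, and 30.9% and 34.3% for B2M.

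The members were also described by their control signal, which enters both changes. The 17 members with a control signal of at least 1000 had a median log2 change of 0.37 with siRNA 1 and 0.19 with siRNA 2, and 3 and 1 of them were at least 2-fold higher. The 21 between the filter level and 1000 had medians of 1.01 and 0.13, with 11 and 2 higher. The 7 below the filter level on the control array (MX1, BST2, HERC5, RSAD2, CMPK2, IFI44L and CXCL11) had 2.68 and 1.33, with 5 and 6 higher. These 7 include the members that passed the filter through the SETD8 siRNA arrays, and for all 7 both changes rest on a control value near background. ISG15, IFI6 and IFI27 do not belong to them. The share of all genes was not counted in these groups of control signal, and a low control value favours a high change. The counts therefore describe the members alone and are not support.

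Several members were measured by more than 1 probe set, which read different stretches of a transcript from the same RNA. Of 16 such members with at least 2 probe sets above the filter, all probe sets of a gene had 1 sign in 11 with siRNA 1, in 13 with siRNA 2 and in 12 for the difference between the siRNAs. IRF1, IFI44, XAF1 and CXCL11 were at least 2-fold higher with siRNA 1 by every such probe set. IFIT3, IFIT5, HLA-B, HLA-E and B2M were above control by less than 2-fold by each, and GBP1 and IFIT2 below control by each. The 3 HLA-B probe sets are all of a type shared between related sequences, so they do not read HLA-B alone with certainty. SP100, with 6 probe sets, ranged from -0.33 to 0.34 with siRNA 1 and from -0.91 to 0.68 with siRNA 2. HLA-E ranged from 0.33 to 1.15 with siRNA 2.

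**Figure D5:**
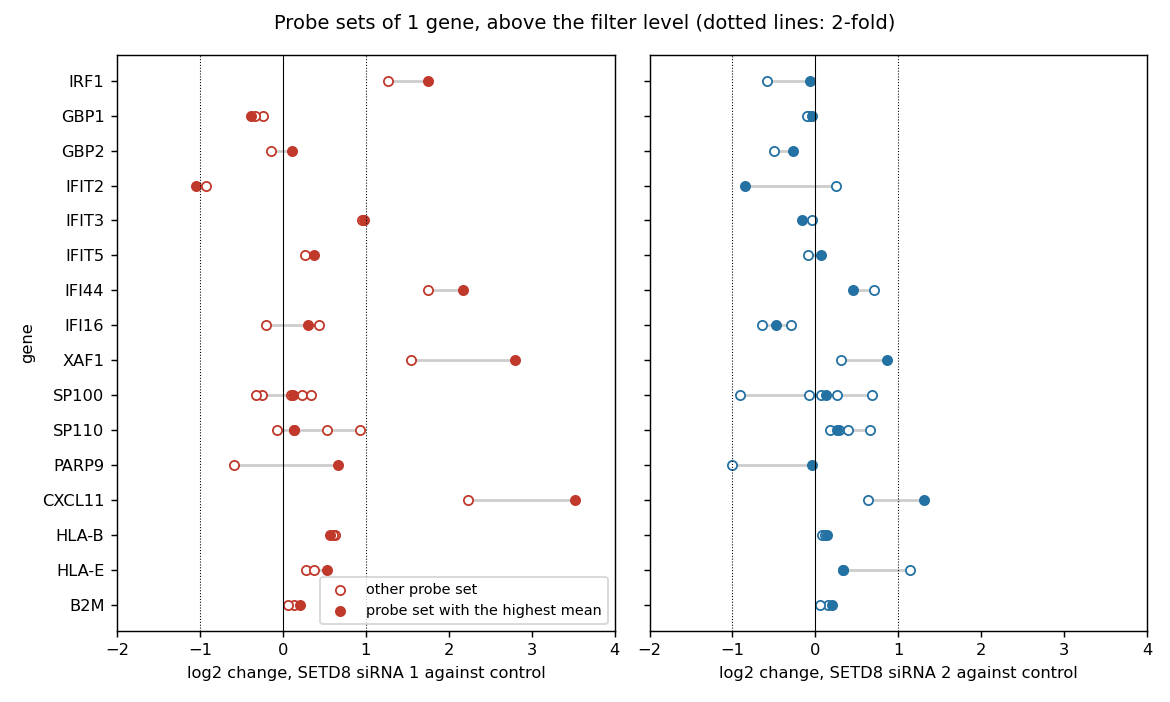
For the 16 interferon-stimulated genes with several probe sets above the filter, each circle is the log2 change of 1 probe set with SETD8 siRNA 1 (left) or SETD8 siRNA 2 (right), filled for the probe set with the highest mean, which stands for the gene, and dotted lines mark 2-fold. CXCL11, XAF1, IFI44 and IRF1 lie right of 1 for every probe set with siRNA 1, whereas SP100 spreads around 0. SP110 ranges from -0.07 to 0.93 with siRNA 1 and from 0.17 to 0.66 with siRNA 2.

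Other genes of the interferon pathway, upstream and downstream, were followed through 6 further lists with 113 genes, of which 104 were analysed and 80 were above the filter. Of these 80, 4 were higher with siRNA 1 (5.48% of all genes above the filter) and 3 lower (7.75%). With siRNA 2, 1 was higher (4.46%) and 5 lower (6.65%). With both, 1 was higher (1.5%) and 2 lower (3.23%). These counts against control lie near or under the shares of all genes. The 4 upstream lists (ligands, receptors and kinases, STAT and IRF factors, and inhibitors) had 29 genes above the filter, of which 1 was higher and 1 lower with siRNA 1, and 1 higher and 3 lower with siRNA 2. Set against siRNA 1, siRNA 2 gave 2 of these 29 lower by at least 2-fold (6.38% of all genes) and 0 higher (6.18%). Of 12 interferon ligands analysed, IFNE alone was above the filter, and it read 45.8, 129.7 and 155.4. IFNB1, the interferon fibroblasts are known to make, read 2.8, 1.6 and 2.8, under the floor on every array. None of 8 receptor and JAK genes above the filter reached 2-fold, with median log2 changes of 0.21 and 0.02. IFNGR2, a chain of the interferon gamma receptor, was highest among them with siRNA 1 (0.94).

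Of 8 other STAT and IRF factors, 0 were higher, and IRF2, a repressor that competes with IRF1, was lower with siRNA 2 (-1.10) and not with siRNA 1 (0.16). Of 12 feedback inhibitors, 0 were higher. SOCS1, which inhibits JAK kinases, read 296.5, 147.1 and 93.2, so it was lower with both siRNAs (-1.01 and -1.67). SOCS3 read 936.4, 1018.2 and 272.6 and was lower with siRNA 2 alone (-1.78). Among the members, USP18 also inhibits the receptor, and its signal was above control with both siRNAs.

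A list of 47 other interferon-induced genes had smaller median changes than the members. Of 36 above the filter, siRNA 1 gave 2 genes with a 2-fold higher signal, TNFSF10 (TRAIL, 2.22) and EPSTI1 (1.04), and both were below control with siRNA 2 (-0.50 and -0.52). TNFSF10 read 31.2, 145.1 and 22.1, so it passed the filter through the siRNA 1 array alone. NMI, a partner of IFI35, read 1597.5, 563.7 and 527.8 and was the 1 gene of the list lower with both. SLFN11, a translation inhibitor, read 1201.9, 672.5 and 425.9, lower by 2-fold with siRNA 2 alone. TYMP, thymidine phosphorylase, read 55.5, 110.8 and 101.0, just under 2-fold higher with each. The median of the 36 was 0.28 with siRNA 1, -0.07 with siRNA 2 and -0.29 for the difference, against 0.69, 0.22 and -0.70 for the 42 members above the filter. Set against siRNA 1, siRNA 2 gave 5 of the 36 lower by at least 2-fold (6.38% of all genes) and 0 higher (6.18%). The difference between the lists was not tested. Of 15 further antigen presentation genes, HLA-F was higher with siRNA 1 (1.14) and HLA-DMA lower (-1.03), and 0 reached 2-fold with siRNA 2. Between the siRNAs, 1 of the 15 was lower with siRNA 2, ERAP2 (-1.13), and 1 higher, HLA-DMA (1.58). The HLA-F value came from a probe set shared between related sequences and was -0.57 without such probe sets.

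Gene groups close to the members in function were counted in the same way. Of all genes above the filter, 5.48% were higher with siRNA 1 and 4.46% with siRNA 2. Of 18 constitutive proteasome subunits, which lack the interferon-induced regulation of PSMB8 and PSMB9, 0 reached 2-fold with either siRNA, with medians of 0.09 and -0.08. Of 8 OAS genes and double-stranded RNA sensors above the filter, 4 were higher with siRNA 1 and 0 with siRNA 2. They were OAS1 (log2 change 1.94), OAS2 (1.23), RIGI (1.06) and IFIH1, which read 177.0, 500.2 and 137.2. OAS1 read 29.6, 113.6 and 35.2, so it passed the filter through the siRNA 1 array alone. The count with siRNA 2 depends on the probe set: with shared probe sets left out OAS1 had a change of 2.60 with siRNA 2, and with probe sets averaged OASL had 1.16. Of 11 other CXC and CC chemokines, 8 were higher with siRNA 1 and 2 with siRNA 2. With siRNA 1, 1 was lower (7.75% of all genes), CXCL12, which read 546.7, 16.2 and 1478.8. With siRNA 2, 1 was lower (6.65%), CXCL5 (-1.38). CXCL2, CXCL6 and CCL20 had control signals of 22.8, 29.3 and 1.3. They passed the filter through the siRNA 1 array alone, so the count of higher chemokines is not support by itself. CXCL1, a neutrophil attractant and NF-kappaB target, read 186.5, 24635.4 and 241.1. CXCL10 thus had the same order of arrays as CXCL1, high with siRNA 1 and near control with siRNA 2. CXCL12 had another order, lowest with siRNA 1 and highest with siRNA 2. Set against siRNA 1, siRNA 2 gave 3 of the 8 OAS genes and sensors and 7 of the 11 chemokines lower (6.38% of all genes). It gave 0 and 1 higher (6.18%). With the filter on the control array, 8 of 34 genes in the 3 comparison lists were higher with siRNA 1 (4.45% of all genes), in place of 12 of 37.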

How the data were processed

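Biotinylated cRNA from 250 ng of total RNA of each of 3 IMR-90 cultures was hybridised to a 1-colour Affymetrix array, per the labels' protocols. The deposited table holds intensity values on a linear scale, which the authors computed with MAS5 according to the submitters' processing notes; its version is not given in the sources used here. The mean without the outer 2% at each end was 497 on all 3 arrays, so no scaling was added, and a shift of all genes would be hidden. Detection calls were not used, and the number of arrays limits the precision.

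Probe sets were named through the platform's annotation with RefSeq symbols of GRCh38.p14 (41037 of 41091 matched), leaving aside 1801 with several genes and 11721 without a listed gene. Probe coordinates were not used here. Values under 11.7 (the 25th percentile) were set to it before log2. Each gene took the probe set whose log2 values had the highest mean over the arrays, and the filter on that mean was the median over probe sets (log2 5.39, signal 42.0). No p-value was computed, and counts use a 2-fold difference.

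Members and lists were chosen with earlier results of these data known. The rule for names took all members, KMT5A and, per further list, up to 4 genes with the largest change in 1 direction with both siRNAs and up to 2 with the largest difference between them. IFNB1, CXCL5, CXCL6, CXCL12 and the cell type markers PTPRC, KRT18, DCN, TEK, PECAM1, VWF and CDH5 were picked outside this rule with their values known. Alternatives were 12 planned ones (scaling, floor, filter, probe set, threshold) and 1 added filter on the control array. Motifs were searched on both strands of RefSeq promoter windows. Python 3.11.15, numpy 2.4.6, pandas 2.3.3 and matplotlib 3.10.9 were used, and the scripts were tested on simulated data.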

Additional observations from a re-analysis of the deposited data

Results flagged for a closer look

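MX2, ISG20 and IFI35 were on opposite sides of the control array with the SETD8 siRNAs, by at least 1.5-fold each way. MX2 had a log2 change of 0.93 with siRNA 1 and -0.97 with siRNA 2. ISG20 had 1.59 and -0.81, and its second, dim probe set read 7.1 on the control array, 73.8 with siRNA 1 and 2.8 with siRNA 2. IFI35 had 0.67 and -0.78. With 1 array per siRNA the difference was not tested for any of them. The direct difference between the siRNAs was -1.90 for MX2, -2.40 for ISG20 and -1.45 for IFI35. Among genes of the same bin of mean signal, 4.13% were as low as MX2 in that difference, 2.6% as low as ISG20 and 4.06% as low as IFI35. These genes were flagged by their changes, so the shares only describe them.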

How the results depend on the processing

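Of 602 values of the members under other settings, 583 moved by less than 1.5-fold and 19 by more. None of the changes of at least 2-fold turned its sign, while 7 smaller ones did, in GBP1, GBP2, IFIT5, IFITM2, IRF1 and PARP9, the largest from 0.66 to -0.59 for PARP9 with siRNA 1. A filter at the 75th percentile left 28 members, of which 9 were at least 2-fold higher with siRNA 1, 3 with siRNA 2 and 3 with both, and 9 were lower with siRNA 2 than with siRNA 1; it left 1 higher gene in the other pathway lists and 5 in the comparison lists. The filter on the control array, added after the data were seen, gave 3 of 38 members with siRNA 2 and 3 with both. Without shared probe sets the comparison lists gave 7 higher genes instead of 12, the members' median was 1.13 with siRNA 1 and -1.03 for the difference, over 28 members, and HLA-F reversed to -0.57. A 1.5-fold threshold gave 21 genes in the other pathway lists instead of 4, and a 3-fold threshold gave 1 there, 3 members with siRNA 2, 3 with both and 8 in the difference. Fewer genes tested or another threshold is what these settings are, and no further cause was tested. Apart from the filter on the control array, the share of all genes was not counted under these settings. The counts there therefore do not show how the members stand against all genes. CXCL11 fell under 2-fold with siRNA 2 in 4 of 7 alternatives, CMPK2 and HERC5 with the pseudocount of 16, and HERC6 (0.69) and PARP14 (0.47) with siRNA 1 when probe sets were averaged. The log2 changes of BST2 with siRNA 1 and siRNA 2 were 3.27 and 1.17 with the pseudocount and 4.94 and 2.40 with a floor at the 10th percentile, and those of MX1 were 3.42 and 2.48 with the pseudocount. No paired analysis was possible because each siRNA has 1 array, and for the same reason no replicate could be left out. Signals near background limit what can be said of MX1, BST2, HERC5, RSAD2, CMPK2, IFI44L and CXCL11 on the control array.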
